A study of Mus musculus and Ictidomys tridecemlineatus with 36 samples.

Results

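The acetylated H3K4me3 peaks are the regions of the retinal genome that carried a narrow H3K4me3 peak together with H3K27ac. In each species a peak of the H3K4me3 list was a member when its width was under 3000 bp and it shared at least 1 bp with an H3K27ac peak of the same species. The rule gave 6542 members of 18020 H3K4me3 peaks in 13LGS, the 13-lined ground squirrel, and 3477 members of 14069 in mouse. CUT&RUN, in which an antibody guides a nuclease to cut and release the bound DNA for sequencing, was performed on nuclei of whole P5 13LGS retina and P2 mouse retina, with 500000 and 385000 nuclei per reaction. The labels hold 36 libraries, 16 of 13LGS and 20 of mouse, and every replicate pooled retinas from several individuals. H3K4me3, H3K27ac and H3K4me1 had 1 library each in 13LGS and 2 each in mouse, Neurod1 had 4 in each species, Otx2 had 6 in 13LGS and 8 in mouse, made with an R&D Systems or an Atlas antibody, and IgG, the antibody control, had 3 and 2. Technical replicates are included in these numbers, and the 13LGS histone marks come from a single biological replicate. No treatment, strain or genotype is given in the labels.

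H3K4me3 is deposited around the start sites of transcribed or poised genes, and H3K27ac is placed by acetyltransferases at promoters and enhancers in use, so a region that carries both is usually read as an active promoter. H3K4me1 is typical of enhancers and of the borders of promoters. Otx2 is a homeodomain transcription factor (TF) that commits retinal precursors to photoreceptor and bipolar fates, and Neurod1 is a basic helix-loop-helix TF of photoreceptor and amacrine cell differentiation. The members were chosen by H3K4me3 width and H3K27ac overlap, so the values of both marks are given only as a description. Otx2, Neurod1, H3K4me1 and the gene annotation are the measures that the rule did not use. The peak lists of a species were all called against IgG, so they are not independent of one another in every respect. Each peak list is 1 joint call over all libraries of a target, so there was no spread between replicates, the depth behind each value is unknown, and the p-values below speak of the peak lists, with no measure of how animals vary.

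Sequence is shown first for the members where both TFs were strongest. In mouse, 4 members were among the 10 highest for both Otx2 and Neurod1, and 300 bases of GRCm38, plus strand, centered on the Otx2 summit are printed for each. Capitals mark TAATCC, the site bound by Otx2 and Crx, and CAGATG, an E-box bound by Neurod1, on either strand. These 4 were chosen after their values were seen.

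chr2:79399502-79399801, intron of *Cerkl*: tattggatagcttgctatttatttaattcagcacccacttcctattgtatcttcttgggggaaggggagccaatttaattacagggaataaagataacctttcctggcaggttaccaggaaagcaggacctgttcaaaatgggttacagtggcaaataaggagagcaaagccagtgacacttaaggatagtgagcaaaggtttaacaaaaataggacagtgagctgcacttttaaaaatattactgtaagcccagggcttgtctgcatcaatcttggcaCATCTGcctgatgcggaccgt
chr4:149749500-149749799, beside the member in an intron of *Slc25a33*: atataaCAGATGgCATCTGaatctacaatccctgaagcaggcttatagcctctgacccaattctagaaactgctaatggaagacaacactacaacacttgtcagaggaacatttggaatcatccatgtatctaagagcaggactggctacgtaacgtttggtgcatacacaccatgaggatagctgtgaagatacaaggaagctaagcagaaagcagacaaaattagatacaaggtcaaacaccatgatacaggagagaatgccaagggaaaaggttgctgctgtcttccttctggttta
chr6:124840294-124840593, upstream of the *Gnb3* start: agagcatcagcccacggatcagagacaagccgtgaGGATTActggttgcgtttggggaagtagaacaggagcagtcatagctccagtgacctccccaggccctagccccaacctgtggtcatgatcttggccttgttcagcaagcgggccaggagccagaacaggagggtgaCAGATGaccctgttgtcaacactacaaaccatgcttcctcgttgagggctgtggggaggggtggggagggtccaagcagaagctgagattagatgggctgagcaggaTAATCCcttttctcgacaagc
chr2:25466196-25466495, between genes near *Ptgds*: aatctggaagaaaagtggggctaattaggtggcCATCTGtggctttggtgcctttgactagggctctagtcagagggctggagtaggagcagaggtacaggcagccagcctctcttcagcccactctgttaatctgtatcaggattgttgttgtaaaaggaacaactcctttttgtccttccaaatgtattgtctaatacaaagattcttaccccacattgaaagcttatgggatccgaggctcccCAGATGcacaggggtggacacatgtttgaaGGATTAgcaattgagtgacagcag

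The *Gnb3* window holds 2 TAATCC sites and 1 CAGATG, the *Ptgds* window 1 and 2, and the windows at *Cerkl* and *Slc25a33* hold CAGATG only, 1 and 2 times. Counted from the Otx2 summit, the TAATCC sites of *Gnb3* began at −115 and 129 bp, and that of the *Ptgds* window at 126 bp. The last lay past the end of its member, at 25466453. *Gnb3* encodes the beta subunit of cone transducin, *Cerkl* a ceramide kinase-like protein of photoreceptors, and *Ptgds* prostaglandin D synthase. A second set was taken by rule from RefSeq promoters of GRCm38.p6, 250 bases before to 50 after the start, at members that overlapped both TFs. Of 394 such promoters, 2 held both motifs, and the 250 bases before the start are printed for both, on the strand of the gene with the motifs in capitals.

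*Magi1*, chr6:93913691-93913940, minus strand: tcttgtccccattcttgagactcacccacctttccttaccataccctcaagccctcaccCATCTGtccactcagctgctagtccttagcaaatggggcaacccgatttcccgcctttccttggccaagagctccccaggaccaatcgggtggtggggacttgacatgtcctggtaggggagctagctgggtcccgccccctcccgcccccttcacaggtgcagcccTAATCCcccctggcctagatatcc
*Wnk2*, chr13:49148329-49148578, minus strand: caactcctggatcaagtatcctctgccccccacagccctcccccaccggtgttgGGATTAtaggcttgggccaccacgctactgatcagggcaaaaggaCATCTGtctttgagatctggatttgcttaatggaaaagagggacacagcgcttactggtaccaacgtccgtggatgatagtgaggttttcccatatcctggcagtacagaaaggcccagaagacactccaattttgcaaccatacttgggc

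The junction scaffold *Magi1* had TAATCC at −24 and CAGATG at −191 bp from the start, and the fold enrichment over IgG on its member was 11.5 for Otx2 and 4.85 for Neurod1. *Wnk2*, a kinase, had them at −196 and −151 bp, with values of 5.34 and 3.98. The *Wnk2* member ended at 49148372, so both of its marked motifs lay beyond it. The *Magi1* member ended at 93913780 and held the TAATCC, while the CAGATG lay beyond it. Fold enrichment is here always the value of the strongest overlapping peak as deposited.

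Members made up 38.2% of the H3K4me3 peaks under 3000 bp in 13LGS and 26.5% in mouse. The H3K27ac lists differ in length, 93999 peaks in 13LGS and 62930 in mouse, and with the same number of H3K27ac peaks the 13LGS share was 31.9%. When H3K27ac peaks had to reach 5 on the −log10 q scale the shares were 24.7% and 14.9%. The species difference was not tested, since each list is a single joint call. By chromosome, the share ran from 21.6% to 45.6% over 19 13LGS sequences and from 21.9% to 31.5% over 20 mouse chromosomes.

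The median width of the members was 1421.5 bp in 13LGS and 1523 bp in mouse, and the median H3K4me3 enrichment was 17.8-fold and 17.3-fold. For the narrow H3K4me3 peaks without H3K27ac, called unacetylated below, the medians were 882 bp and 8.92-fold in 13LGS and 1182 bp and 11.0-fold in mouse. The acetylated peaks of 3000 bp or more, 720 in 13LGS and 596 in mouse, reached 39.3-fold and 40.3-fold. The median H3K27ac enrichment of the members was 3.47-fold in 13LGS, from 1.66 to 22.5, and 3.5-fold in mouse, from 1.57 to 16.3.

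**Figure D1:**
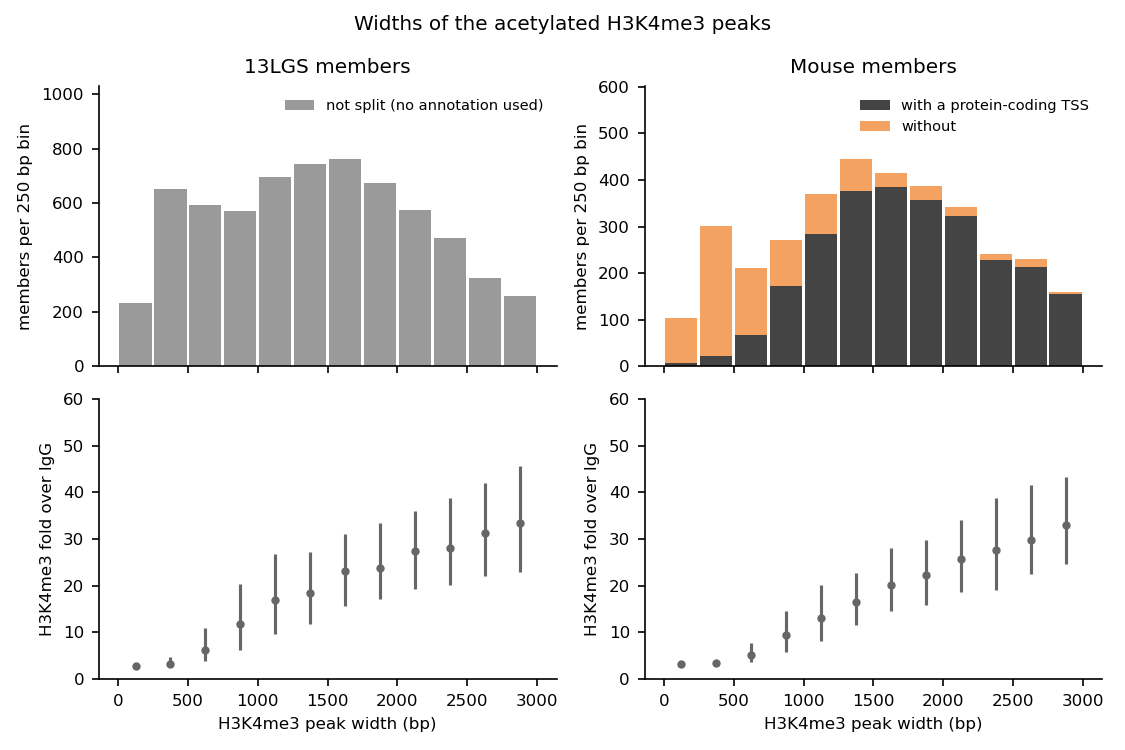
Members by width in 250 bp bins (top; mouse bars are split by whether a protein-coding TSS lies inside) and H3K4me3 fold enrichment over IgG by width (bottom; points are medians and lines span the quartiles). In mouse 22 of the 302 members from 250 to under 500 bp held a TSS, and 384 of the 414 from 1500 to under 1750 bp, while the median fold enrichment rose with width from 3.21 to 33.1.

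H3K27ac covered only part of each member. The median member had 543 acetylated bp in 13LGS, 51.8% of its width, and 479 bp in mouse, 39.6% of its width. Most members met a single H3K27ac peak, 88.3% in 13LGS and 90.0% in mouse, and no member met more than 3. Some memberships rested on a short overlap, with under 250 bp in 12.6% of 13LGS and 13.5% of mouse members. Conversely, 13.4% and 13.5% lay wholly inside 1 wider H3K27ac peak, and 131 H3K27ac peaks in 13LGS and 47 in mouse spanned several members, which are then not independent regions. Another H3K4me3 peak lay within 500 bp of 15.4% of the 13LGS members and 6.44% of the mouse members.

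The peaks nearest the width limit are given as single values, and over whole classes the median H3K27ac of the acetylated peaks of 3000 bp or more was 4.12-fold in 13LGS and 3.82-fold in mouse. The widest 13LGS members, 3 of 2999 bp each, had H3K27ac at 8.27-fold, 3.38-fold and 7.57-fold, and the 3 acetylated peaks just outside, of 3002 to 3003 bp, had 3.81-fold, 2.76-fold and 3.55-fold. In mouse the 3 inside, at *Ppp1r12a*, *Cflar* and *Plxnb1*, had widths of 2996, 2993 and 2989 bp and H3K27ac at 5.98-fold, 8.36-fold and 5.17-fold. The 3 outside had widths of 3000 to 3005 bp, the wider pair lying at *Map3k12*/*Tarbp2* and at *Stxbp5*, and H3K27ac at 2.44-fold, 2.69-fold and 3.33-fold.

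Most mouse members, but not all, were promoters. A protein-coding TSS of GENCODE M21 lay inside 2585 of the 3477 (74.3%), against 7022 of 9652 unacetylated peaks (72.8%), a difference of 1.59 percentage points (95% interval −0.126 to 3.28; two-sided Fisher's exact test, p = 0.0706). This single test was not adjusted, and the direction of the difference was not stable. Weighting the unacetylated peaks to the members' widths gave −6.27 percentage points, H3K27ac peaks of at least 5 on the −log10 q scale gave −6.06, and other settings are given at the end. Of the remaining members, 117 held another start of a protein-coding gene and 105 the start of a non-coding gene or pseudogene only. Another 309 lay in introns, 53 in exons and 308 between genes, so that 670 members (19.3%) held no annotated start. For 13LGS no annotation was used here, and its members are described by position.

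The members with and without a protein-coding TSS had different values. Those with a TSS had a median width of 1736 bp and H3K4me3 at 21.4-fold, whereas the 892 without had 620.5 bp and 4.54-fold. H3K27ac ran the other way, at a median of 3.33-fold with a TSS and 4.12-fold without, as did H3K4me1, at 6.47-fold and 8.87-fold. An Otx2 peak lay on 95% of the members with a TSS and 81.2% of those without. For Neurod1 the order was opposite, 12.9% and 20.1%. Members in introns had the highest H3K27ac and H3K4me1 medians of the annotation classes, 4.60-fold and 11.2-fold, with an H3K4me3 median of 3.67-fold. Base composition followed the same split. In 500 bp around the peak center, the median GC content was 62.2% with a TSS and 54.0% without, and the median observed to expected CpG ratio was 0.753 and 0.438. For unacetylated peaks the ratio was 0.793 with a TSS and 0.571 without.

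In 13LGS the members were compared by width. The 883 members under 500 bp had median H3K4me3 at 3.16-fold, H3K27ac at 4.17-fold and H3K4me1 at 7.13-fold, and the 4497 of 1000 bp or more had 23.7-fold, 3.36-fold and 6.47-fold. Otx2 lay on 56.2% of the former and 88.0% of the latter, and Neurod1 on 11.1% and 6.49%. In mouse the 406 members under 500 bp had Otx2 on 76.1% and Neurod1 on 19.5%, against 95.4% and 13.7% for the 2590 of 1000 bp or more.

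Otx2 was more frequent on members than on unacetylated peaks of the same species. In 13LGS an Otx2 peak overlapped 5266 of 6542 members (80.5%) and 5227 of 10597 unacetylated peaks (49.3%), beside 62.9% of all H3K4me3 peaks. The difference was 31.2 percentage points (95% interval 29.8 to 32.5; two-sided Fisher's exact test, Benjamini-Hochberg adjusted over 6 tests; the p was below 1e-300, the smallest value written). In mouse the shares were 91.5% (3180 of 3477) and 72.1% (6959 of 9652), beside 78.6% of all H3K4me3 peaks, a difference of 19.4 points (18 to 20.6; adjusted p = 1.08e-138, Fisher's exact test). Members are wider than unacetylated peaks, and a wider peak meets others more readily. With the unacetylated peaks weighted to the members' widths the 13LGS difference was 19.7 points and the mouse difference 13.2. H3K4me3 enrichment, which was also higher on members, was not weighted for. The share of the members under 250 bp was 58.4% against 18.2% in 13LGS and 71.2% against 27.4% in mouse.

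Neurod1 peaks were far fewer, and again more frequent on members. In 13LGS they lay on 485 members (7.41%) and 209 unacetylated peaks (1.97%), beside 4.35% of all H3K4me3 peaks, a difference of 5.44 points (4.77 to 6.15; Fisher's exact test, adjusted p = 9.05e-67). The difference was 3.16 points when overlaps of at least 250 bp with both H3K27ac and Neurod1 were required. It was 3.21 with Neurod1 peaks restricted in the same way to 5 or more on the −log10 q scale. In mouse they lay on 512 members (14.7%) and 452 unacetylated peaks (4.68%), beside 8.20% of all H3K4me3 peaks, a difference of 10.0 points (8.82 to 11.3; Fisher's exact test, adjusted p = 1.30e-74). In both species the share of members with Neurod1 was highest under 250 bp, 12% in 13LGS and 22.1% in mouse. Nearly every member with Neurod1 also had Otx2, 464 of 485 in 13LGS and 504 of 512 in mouse. So did most unacetylated peaks with Neurod1, 186 of 209 and 440 of 452. The members with neither TF, 19.2% in 13LGS and 8.31% in mouse, were narrower, with median widths of 837 and 821 bp. Unacetylated peaks with neither TF were also narrow, with medians of 624 and 613 bp.

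H3K4me1 lay on most members. The share was 89.7% of the 13LGS members and 67.4% of the unacetylated peaks, beside 76.9% of all H3K4me3 peaks (difference 22.3 points, 21.1 to 23.4; Fisher's exact test, adjusted p = 9.94e-263). In mouse it was 95.6% and 84.4%, beside 88.1% of all H3K4me3 peaks (difference 11.2 points, 10.2 to 12.1; Fisher's exact test, adjusted p = 4.58e-77). The difference was 21.4 points with overlaps of at least 250 bp with both H3K27ac and H3K4me1. In that setting all H3K4me3 peaks under 250 bp count as unacetylated and without H3K4me1 by rule. H3K4me1 enrichment where present had a median of 6.35-fold on 13LGS members and 4.38-fold on unacetylated peaks, and 6.93-fold and 5.31-fold in mouse.

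**Figure D2:**
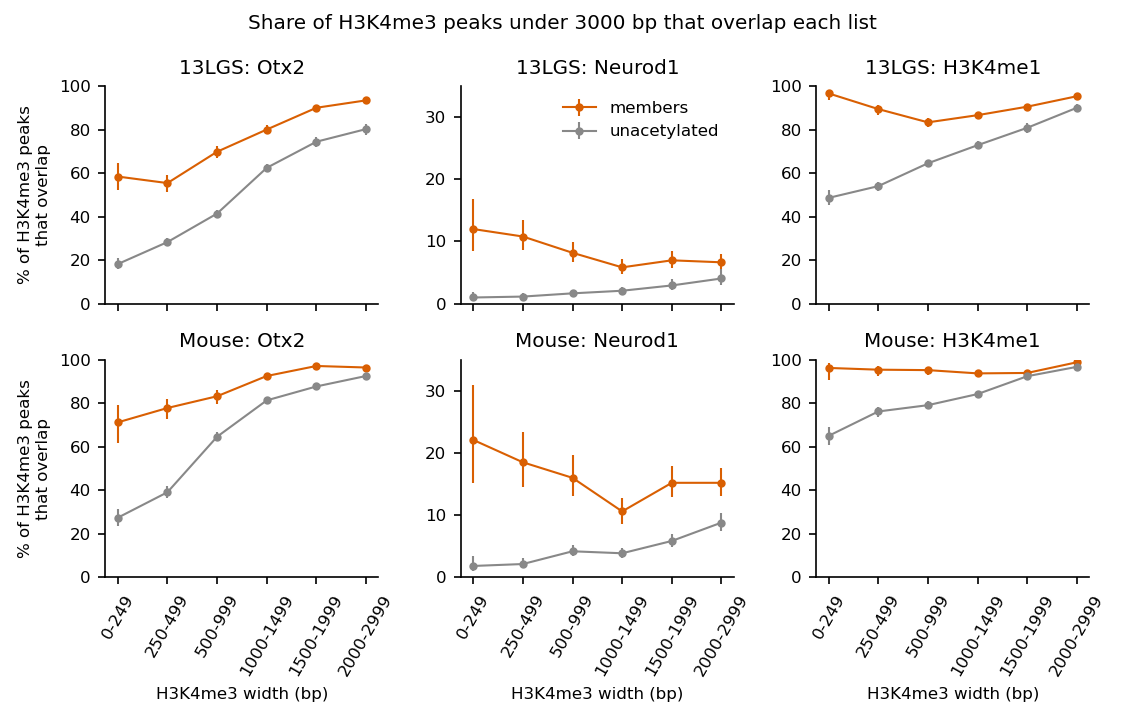
Percent of H3K4me3 peaks that overlapped an Otx2, Neurod1 or H3K4me1 peak, by H3K4me3 width, for members and unacetylated peaks of each species; bars are 95% Wilson intervals, which cover counting error only. Members lay above unacetylated peaks in every panel and bin, most widely under 250 bp, where H3K4me1 overlapped 96.6% and 48.6% of the 13LGS peaks, and the mouse H3K4me1 shares from 1500 to under 2000 bp were close, at 93.9% and 92.4%.

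The position of each mark around the TSS was then examined. Of the mouse members, 2318 held starts on 1 strand only, and these were aligned on the start nearest the peak center. H3K4me3 covers the start of all of them by construction. H3K27ac peaks covered 38.5% of these promoters at −300 bp, 32.4% at the start and 46.9% at 300 bp into the gene, so that acetylation lay on both sides of the start with a dip between. Otx2 peaks were centered on the start, covering 80.9% of the promoters there and 12.3% at 1000 bp. H3K4me1 dipped at the start, to 30.7% at 100 bp between 47.6% at −300 bp and 79.5% at 1200 bp, and fell to 10.1% at −3000 bp. Neurod1 peaks covered 5.35% at 100 bp. The strongest H3K4me3 summit lay downstream of the start in 85.2% of these members, at a median of 183 bp. Among the 2223 with an H3K4me1 peak the strongest H3K4me1 summit lay downstream in 78.0%, at a median of 1119 bp. For H3K27ac the share was 56.3% of all 2318, and for Otx2 46.1% of the 2196 with an Otx2 peak. Unacetylated promoters, 6372 in number, had a like order of H3K4me3, H3K4me1 and Otx2, with lower shares for H3K4me1 and Otx2, 68.9% and 66.1% at their highest.

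**Figure D3:**
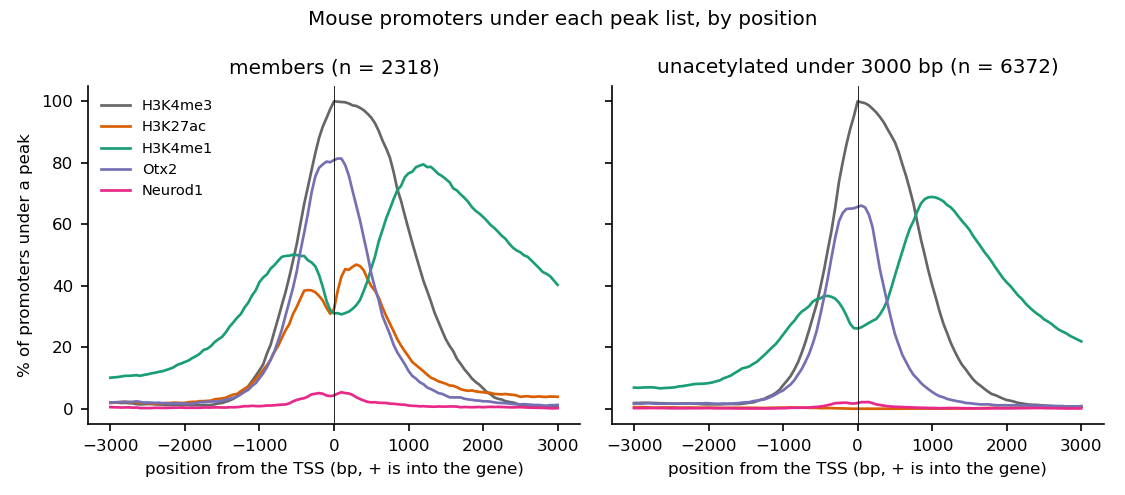
Percent of mouse promoters that lay under a peak of each list, by position from the TSS in bp (positive into the gene), for members and unacetylated peaks with starts on 1 strand. In members H3K27ac showed a peak on each side of the start, 38.5% at −300 bp and 46.9% at 300 bp, and H3K4me1 rose to 79.5% at 1200 bp.

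In 13LGS only the peak center could be used. H3K27ac covered 67.6% of the members at the center and 22.2% at 1000 bp on either side, Otx2 55.7% and 8.03%, and H3K4me1 rose from 45.4% to 56.8%. The mouse values by center were 57.0% and 19.0% for H3K27ac, 70.8% and 16.0% for Otx2 and 45.0% and 67.7% for H3K4me1.

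A start on each strand, the pattern of a divergent promoter, was found in 267 of the 2585 mouse members with a TSS (10.3%) and in 9.26% of the unacetylated peaks with a TSS. Examples are *Ndufs3*/*Kbtbd4* and *Rps18*/*Vps52*.

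Among the gene lists, the respiratory chain and the ribosomal proteins had the highest shares of listed genes in members. Of 21840 protein-coding genes, 2837 (13.0%) had a TSS in a member and 11271 (51.6%) in any H3K4me3 peak, so that members held 25.2% of the genes with an H3K4me3 peak. Respiratory chain genes stood at 36 of 84 (42.9%, or 45.6% of those with a peak) and ribosomal protein genes at 28 of 79 (35.4%, or 36.8%). tRNA synthetases of the cytosol had 5 of 17, cell cycle and replication genes 10 of 40 and proteasome subunits 5 of 39. These lists hold mainly genes transcribed in most cells, and no set test was run. Their H3K27ac was moderate, with medians of 3.42-fold for the respiratory chain and 2.99-fold for ribosomal proteins, and Otx2 lay on 33 of the 36 and on all 28, beside 95% of all members with a TSS. Within the respiratory chain the highest H3K27ac values were those of *Uqcr10*, a subunit of complex III, at 6.99-fold, and *Cox4i2*, of complex IV, at 6.19-fold. Within the ribosomal proteins they were those of *Rpl13* and *Rpl4*, of the large subunit, at 4.52-fold and 4.43-fold. The members of *Uqcr10* and *Rpl4* also hold the start of *Zmat5* and *Zwilch*, so their values cannot be assigned to 1 gene.

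Photoreceptor TFs lay more often in wider domains than in members. Of 18 genes, 2 were members, 9 had H3K4me3 peaks of 3000 bp or more, 5 were unacetylated and 2 had no peak. Members were 11.1% of this list, beside 13.0% of all protein-coding genes. Peaks of 3000 bp or more held 9 of the 18, beside 4.51% of all protein-coding genes. *Rorb*, a nuclear receptor needed for rods, was a member of 2292 bp with H3K27ac at 6.55-fold, H3K4me1 at 11.9-fold and Otx2 at 8.23-fold. *Rxrg*, the retinoid X receptor of cones, had 1485 bp, H3K4me3 at only 3.98-fold, H3K27ac at 3.00-fold and Otx2 at 4.41-fold. Neither had a Neurod1 peak. *Crx*, *Otx2*, *Neurod1* and *Nrl* all had H3K4me3 domains of 5376 to 8796 bp.

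Phototransduction and photoreceptor structure genes were mostly without H3K4me3, 31 of 43. Of the 12 with a peak, 5 were members (41.7%, beside 25.2% of all genes and 36.8% of the ribosomal protein genes with a peak). Over the whole list members were 11.6%, beside 13.0% of all protein-coding genes. *Prom1*, a membrane protein of the outer segment discs, had H3K27ac at 5.05-fold, Otx2 at 3.70-fold and Neurod1 at 4.05-fold. For *Pde6b*, the beta subunit of the rod phosphodiesterase, H3K27ac was 4.76-fold and Otx2 5.24-fold. *Impg2*, a proteoglycan of the matrix between photoreceptors, had 4.64-fold, 6.66-fold and Neurod1 at 5.96-fold. *Tulp1*, a tubby-like protein of photoreceptor transport, had 3.26-fold and 4.95-fold. *Gnb3* was lower in H3K27ac, 2.95-fold, but had Otx2 at 26.2-fold and Neurod1 at 17.6-fold. All 5 carried Otx2, and *Gnb3*, *Impg2* and *Prom1* also carried Neurod1, beside 95% and 12.9% of all members with a TSS.

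Progenitor and neurogenic genes also lay mostly in wider domains, with 26 of 36 in wide domains, 6 unacetylated and 4 members. These were 72.2% in wide domains and 11.1% in members, beside 4.51% and 13.0% of all protein-coding genes. *Mfng*, a fringe glycosyltransferase that modifies Notch, had the highest H3K27ac of the 4 at 8.14-fold. *Dll3*, a Notch ligand, had 3.57-fold with Neurod1 at 6.98-fold. *Gadd45a*, a stress and cell cycle regulator, had 2.85-fold, and *Atoh7*, the TF of ganglion cell competence, had 2.68-fold with H3K4me1 at 14.4-fold. Otx2 lay on all 4, near its share of 95% over all members with a TSS. *Foxn4*, a TF of amacrine and horizontal cell competence, was the only member among 25 ganglion, amacrine and horizontal cell genes, and carried H3K27ac at 2.58-fold without Otx2. No bipolar cell gene of 17 was a member, and 8 of the 17 had an H3K4me3 peak.

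Müller glia genes gave 4 members of 15 (26.7%), beside 13.0% of all protein-coding genes. Of the 12 Müller glia genes with an H3K4me3 peak members were 33.3%, beside 25.2% of all genes with a peak. *Car2*, carbonic anhydrase 2, had H3K27ac at 7.20-fold and H3K4me1 at 25.5-fold, *Crym* 4.35-fold and 11.0-fold, *Apoe* 3.74-fold and 10.4-fold, and *Slc1a3*, the glutamate transporter, 2.92-fold and 15.3-fold. Among immediate early genes, members were *Dusp1* at 4.09-fold and *Zfp36* at 3.08-fold, 2 of 23. *Map2* and *Vamp2*, both at 3.55-fold, were the members among 18 pan-neuronal genes (11.1%), of which 8 were unacetylated. The neuron markers *Stmn2* and *Elavl3* had unacetylated narrow peaks, and *Tubb3* had a peak of 3295 bp without H3K27ac.

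**Figure D4:**
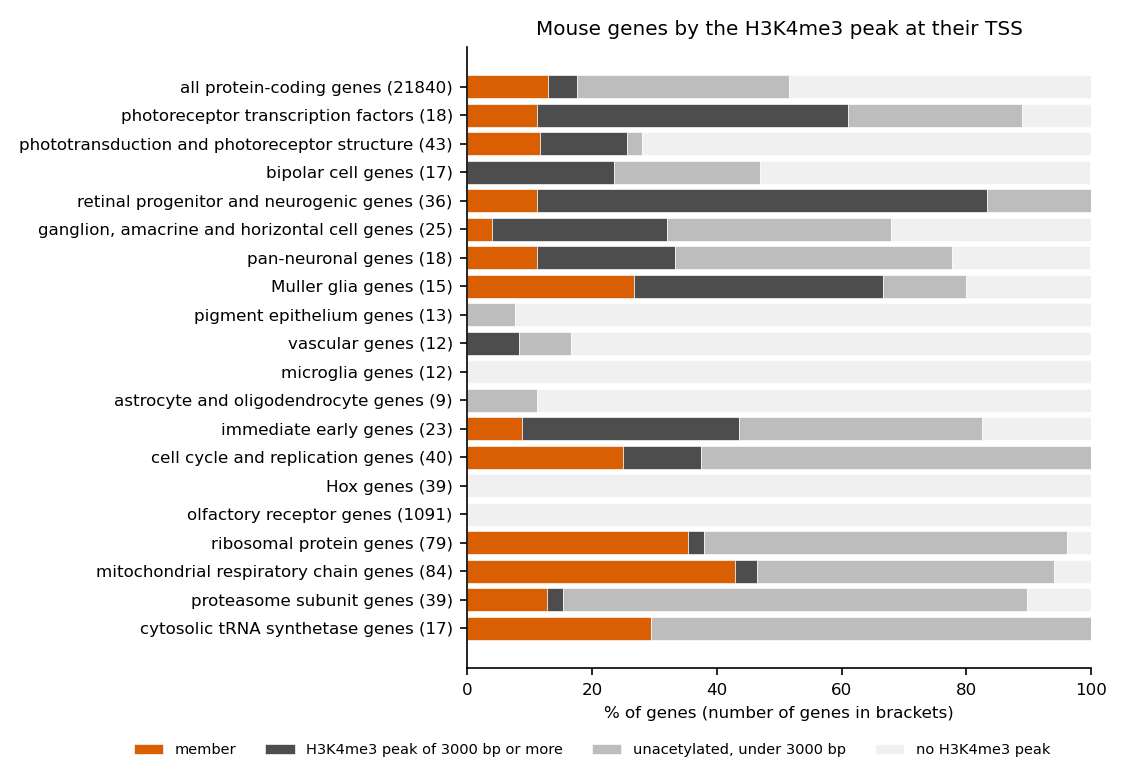
Percent of genes in each list whose TSS lies in a member, in an H3K4me3 peak of 3000 bp or more, in an unacetylated narrow peak or in none, mouse only; a gene is counted once, in that order. Members took 42.9% of the respiratory chain and 35.4% of the ribosomal protein genes against 13.0% of all genes. In wide domains lay 72.2% of the progenitor genes, against 4.51% of all genes.

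Genes of other cell types were then counted, beside the 13.0% of all protein-coding genes with a TSS in a member. Pigment epithelium (13 genes), vascular (12), microglia (12), astrocyte and oligodendrocyte (9), Hox (39) and olfactory receptor (1091) genes gave 0 members each. Of all protein-coding genes with an H3K4me3 peak, 25.2% were members. In these lists only 1 pigment epithelium, 2 vascular and 1 astrocyte and oligodendrocyte gene had a peak, so few could be members. Of their defining markers, *Rpe65*, *Tyr*, *Pmel*, *Pecam1*, *Cdh5*, *Csf1r*, *Cx3cr1* and *P2ry12* had no H3K4me3 peak, while *Kdr* had a domain of 5235 bp and *Mitf* an unacetylated peak of 711 bp. The progenitor markers *Pax6*, *Sox2*, *Rax*, *Six6* and *Lhx2* had acetylated domains wider than the limit, and *Rcvrn*, a marker of photoreceptors, had no peak.

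Several of the most acetylated mouse members shared an H3K27ac peak. The first 3 by H3K27ac, all at 16.3-fold, lay at *Zfp385a* on chr15:103332899-103340788 under the same H3K27ac peak, and only the third, of 1779 bp, held its TSS. The next, at 15.6-fold, were a pair of members of 207 and 250 bp on chr13:84059120-84059796, 162974 and 162504 bp from the nearest TSS, also under 1 H3K27ac peak, where H3K4me1 reached 37.6-fold. Among members with a TSS, the highest after *Zfp385a* were *Ankrd28* at 13.2-fold, *Crb1* at 11.1-fold, *Dis3l* at 11.0-fold, and *Magi1* and *Hdac9* at 10.6-fold. *Crb1* encodes an apical polarity protein of photoreceptors and Müller glia, and its member also had H3K4me1 at 23.8-fold. Otx2 lay on each of these members with a TSS, from 2.82-fold to 11.5-fold, as on 95% of all such members. It was not called on the first of the 3 *Zfp385a* members, of 742 bp.

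Otx2 was strongest at the *Cerkl* member on chr2:79399566-79399815, at 40.5-fold with Neurod1 at 27.4-fold, 29076 bp from the nearest TSS. The *Slc25a33* member, chr4:149748582-149749453, followed with 31.9-fold and 23.5-fold. Both of these summits lay beyond the member, Otx2 at 149749650 and Neurod1 20 bp further on. *Mindy4*, a deubiquitinase gene, led the members with a TSS at 31.7-fold, before *Gnb3* at 26.2-fold, *Cdk19*, a Mediator kinase, at 24.1-fold, and *Riok2*, a kinase of ribosome maturation, at 23.2-fold. *Ano2*, a calcium-activated chloride channel of photoreceptors, had a member 315 bp from its TSS at 28.6-fold without Neurod1. The member near *Ptgds*, 3296 bp from its TSS, was bound by Otx2 at 21-fold and by Neurod1 at 19.9-fold, beside an H3K27ac value of 11.2-fold. For Neurod1 the promoters after *Gnb3* were *Inpp4b* at 16.8-fold, *Fam110a* at 15.7-fold, *Tecpr1* at 13.6-fold and *Arhgef10l* at 11.0-fold. Of the 10 highest members by Neurod1, 3 lay side by side under 1 Neurod1 peak of 22.1-fold.

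In 13LGS the highest H3K27ac was on Itri1:181486887-181488023, at 22.5-fold with H3K4me1 at 35.3-fold and Otx2 at 8.86-fold. The others of the first 10 ran from 17.2-fold to 18.2-fold. They included neighboring pairs under 1 H3K27ac peak on Itri6 and on Itri4. The highest Otx2 was on Itri4:102308293-102309777, at 22.4-fold with Neurod1 at 17.4-fold, where H3K27ac was 4.73-fold. Itri6:57389187-57391109, the third, had 18.1-fold without Neurod1 and H3K4me3 at 60.8-fold. For Neurod1 the highest was Itri7:6889940-6890337, at 18.6-fold with H3K4me3 at 2.19-fold. Of the first 10 by Neurod1, all 10 also carried Otx2, as did 464 of all 485 13LGS members with Neurod1.

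For *Mef2c*, *Rxrg* and *Thrb*, TFs linked to cones, members were compared with the accessible elements that the study assigned to each gene. In 13LGS, a member on Itri1:175618859-175620491 met a *Mef2c* element, with H3K27ac at 6.39-fold, H3K4me1 at 15.8-fold and Otx2 at 10.0-fold. Another, on Itri9:101942566-101945038, met 4 *Rxrg* elements, with H3K4me3 at 11.1-fold, H3K27ac at 4.12-fold, Otx2 at 3.07-fold and Neurod1 at 2.41-fold. In mouse only the *Rxrg* promoter member on chr1:167598432-167599916 did so, with 3 elements. No member met a *Thrb* element in either species. The share of all assigned elements that met a member is not given here, so these counts give no comparison between genes.

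Motifs were counted in mouse on both strands. In 500 bp around the center, TAATCC was in 15.5% of members without a TSS and 7.93% of those with one, against 10.4% and 6.01% of unacetylated peaks, and 7.92% of all H3K4me3 peaks. CAGATG was in 31.6% and 17.8% of the members, against 25.4% and 17.0% of unacetylated peaks and 19.9% of all. In the promoter windows of 300 bases, TAATCC was found in 6.18% of 2994 at members, 4.26% of 7696 at unacetylated peaks and 7.06% of all 32817. The GC box GGGCGG was in 64.2%, 72.2% and 35.6%, the ETS site CCGGAAG in 21.3%, 20.4% and 8.86%, and TATAAA in 5.85%, 4.92% and 13.6%.

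Around the summits the motifs lay to the side. TAATCC was found within 50 bp of the Otx2 summit in 1.11% of the 3157 summits at members, and at 100 to 150 bp in 5.70% (95% Wilson interval 4.95 to 6.57), with 3.42% at 450 to 500 bp. Summits at unacetylated peaks had 1.20%, 3.71% (3.29 to 4.18) and 3.48%. A summit shared by several peaks was counted once. CAGATG around Neurod1 summits was in 5.54%, 21.2% (17.8 to 25) and 6.14% of the 505 summits at members, and in 7.98%, 16.4% (13.3 to 20.1) and 5.10% of the 451 at unacetylated peaks. The distance bins were chosen after the data were seen. A match is a run of letters and not a measured binding site.

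**Figure D5:**
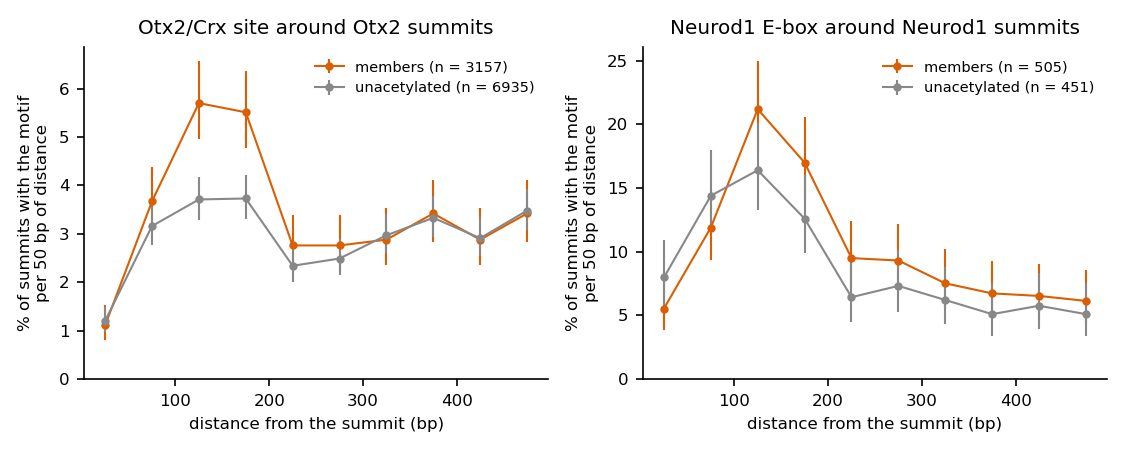
Percent of Otx2 or Neurod1 summits with the factor's motif, per 50 bp of distance on both sides, for mouse members and unacetylated peaks; bars are 95% Wilson intervals. The curves were highest between 100 and 150 bp, at 5.70% and 21.2% in members, except for unacetylated Otx2, where 150 to 200 bp was level with it at 3.73%.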

How the data were processed

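CUT&RUN reads had been trimmed by the authors with cutadapt 3.5 and Trim Galore 0.6.4 and aligned with Bowtie2 to GRCm38 for mouse and HiC_Itri_2 for 13LGS, filtered with SAMtools 1.12 and deduplicated with UMI-tools, and peaks were called with MACS2 at a q-value of 0.05, jointly over the libraries of a target and against IgG. Versions are from the submitters' processing notes. The deposited fold enrichment is a ratio of pooled signal to IgG, and the deposited significance is −log10 of the q-value. The summit is an offset from the peak start as deposited by the authors. No value was rescaled, and positions are counted from 1.

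Overlaps were computed with numpy 2.4.6 and pandas 2.3.3 under Python 3.11.15, tested on simulated data against bedtools 2.31.1. Tests and intervals used scipy 1.17.1 and statsmodels 0.14.6, sequences pysam 0.24.0. Members were compared with unacetylated H3K4me3 peaks by two-sided Fisher's exact tests. Peaks that share a neighborhood are not independent, so these p-values are too small if read as evidence over animals. Mouse genes came from GENCODE M21 and promoters from RefSeq GRCm38.p6. The members and lists were chosen with earlier results of these data known. Named genes were the 10 highest members by H3K27ac, Otx2 and Neurod1, list genes in members (up to 6 a list), members nearest the width limit, and members at elements of *Mef2c*, *Rxrg* and *Thrb*. Ribosomal, respiratory, other housekeeping and pan-neuronal genes, the highest members with a TSS, and the sites printed at Otx2 summits were named after their values were seen. Alternatives were an overlap of 250 bp, −log10 q of 5, equal list lengths, a width of 2000 bp, merging within 500 bp, chromosomes only, width weighting and a TSS within 1000 bp. No 13LGS genome or annotation was used here. The result for 1 further marker gene is not reported here.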

Additional observations from a re-analysis of the deposited data

How the results depend on the processing

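The 6 differences in Otx2, Neurod1 and H3K4me1 share kept their direction and stayed past the 0.05 threshold under every alternative run. The 250 bp minimum held for H3K27ac and for the compared list alike. Under it, all H3K4me3 peaks under 250 bp counted as unacetylated and unmarked by rule. The 104 mouse members under 250 bp, 6 of them with a TSS, so moved to the unacetylated side of the TSS comparison. They were among the 470 mouse members with under 250 acetylated bp, which all moved. The share of narrow H3K4me3 peaks that were members moved in 13LGS from 38.2% to 33.3% with overlaps of at least 250 bp, 24.7% with an H3K27ac minimum of 5 in −log10 q, 31.9% with equal numbers of H3K27ac peaks, 33.7% under 2000 bp and 39.5% with peaks within 500 bp merged. In mouse it moved from 26.5% to 22.9% with overlaps of at least 250 bp, 14.9% with H3K27ac peaks at 5 or more on the −log10 q scale, and 23.2% under 2000 bp. The mouse TSS difference, 1.59 percentage points, became 4.83 with overlaps of at least 250 bp, past the threshold, and turned to −6.06 with that H3K27ac minimum, −2.42 under 2000 bp, −3.55 with a TSS within 1000 bp and −6.27 with width weighting; the cause was not tested. In all, 55 of the settings gave the same reading, 8 moved a value, 4 reversed it and 1 strengthened it. The 13LGS TSS difference was not run, since no 13LGS annotation was used. No paired analysis was possible because each list pools its libraries, and for the same reason no replicate could be left out. Depth is unknown, so an absent peak does not show an absent mark.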

Other observations

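Cell cycle promoters among the mouse members had Otx2 on all 10, beside 95% of all members with a TSS. The highest H3K27ac was at *E2f1*, a TF of S phase genes, with 4.89-fold, and at *Cdc20*, an activator of the anaphase-promoting complex, with 4.85-fold. *E2f2* had the highest Otx2, 9.85-fold, with Neurod1 at 4.25-fold. The replication helicase subunits *Mcm2*, *Mcm5* and *Mcm6* had H3K27ac at 2.15-fold, 2.73-fold and 4.38-fold, and Otx2 at 4.08-fold, 5.77-fold and 5.58-fold. The proteasome members were *Psma6*, *Psmb5*, *Psmc5*, *Psmc6* and *Psmd6*, of which *Psmb5*, a catalytic subunit, had Otx2 at 14.2-fold. Of the tRNA synthetase members, *Iars* had H3K27ac at 4.15-fold and *Qars* was without Otx2. These genes were named after their values were seen.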
